A study of Mus musculus with 6 samples.

Results

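The genes described here encode proteins that megakaryocytes make. Platelets use most of these proteins to stick to vessel walls, to signal, and to release the contents of their granules. The genes were chosen by name for their known roles, with no measured value in the rule, but with earlier results of these data known. They number 32 of the 26264 genes in the table. By role, 8 are adhesion receptors, 10 are granule and clotting proteins, 10 are signalling receptors, enzymes, and adaptors, 1 is the platelet tubulin, and 3 are lineage transcription factors. They were measured by bulk RNA-seq in untreated hematopoietic stem cells (HSCs) sorted from the bone marrow of 8-week-old female mice. One group was wild-type (WT) C57Bl/6 and the other was *Irf1-/-* (B6.129S2-Irf1 tm1Mak/J), in which interferon regulatory factor 1 is lost from the whole body, so that the niche and blood of these mice lack it as well. Each group had 3 libraries from separate mice, numbered 2, 3, and 4 in the sample descriptions and column names (the sample titles number the same libraries 1, 2, and 3), and values below are given in that order. Reads counted on genes were 43138521, 57281017, and 45129929 in *Irf1-/-* HSCs and 59658080, 45332573, and 43267486 in WT HSCs. Values are normalized counts, meaning reads per gene divided by a scaling factor of the library.

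Megakaryocytes arise from HSCs by way of progenitors, and a share of HSCs already carries megakaryocyte transcripts such as *Vwf* and *Itga2b* before any commitment. On platelets, the GPIb-IX-V complex holds von Willebrand factor under flow, the integrin αIIbβ3 binds fibrinogen, and thrombin acts through protease-activated receptors. Alpha granules store chemokines, clotting factors, and P-selectin, which reaches the surface when the platelet is activated.

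For *Irf1* itself, the gene that is targeted, 9267, 9524, and 9287 normalized counts were read in *Irf1-/-* HSCs and 10122, 11119.6, and 12058 in WT HSCs. Each *Irf1-/-* library was below each WT library, but the gene was still read at a high level (log2 fold change −0.24, SE 0.09, limma adjusted P = 0.170). A count over the whole gene does not show which exons were read, so it checks the genotype labels only in part. The study's HSC gate is negative for lineage markers, CD11b and Gr-1 among them, and for CD48, and positive for Sca-1, Kit, and CD150, with no separate gate stated for the sequenced cells. The libraries held transcripts of the positive markers. *Kit* was at 77902, 88715, and 79909 in *Irf1-/-* HSCs and 83185, 84044, and 80517 in WT HSCs, and *Slamf1*, which encodes CD150, was at 3823, 3412, and 3481 in *Irf1-/-* and 3198, 3052, and 2848 in WT HSCs. *Ly6a*, which encodes Sca-1, was lower in each *Irf1-/-* library, at 4974, 6047, and 5376 in *Irf1-/-* and 6908, 7439, and 7692 in WT HSCs, and its log2 fold change of −0.43 (SE 0.09, limma adjusted P = 0.0245) was under the threshold of 0.58 in size that is used below. *Cd48* ranged from 257 to 431 over the 6 libraries. Here and below, genes of marker lists other than the most abundant one and those at 0 were named after their values were seen.

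In *Irf1-/-* HSCs, part of the megakaryocyte and platelet genes was lower, and 1 was higher. A gene counted as lower or higher when its limma adjusted P was below 0.05 and its log2 fold change beyond 0.58 in size. Of 31 tested members, 8 were lower (*Pf4*, *F2rl2*, *Plek*, *Gp1bb*, *Treml1*, *Gp1ba*, *F2r*, and *Gp5*), which is 25.8%, against 0.954% of the 17404 genes tested. The gene that was higher was *Selp*, 1 of 31 members, against 0.960% of all tested genes. The members' median log2 fold change was −0.27, beside −0.0028 over all tested genes, and 21 of the 31 had a negative value. In 12 members all *Irf1-/-* libraries lay below all WT libraries, as in 9.27% of tested genes, and in 1 all lay above, as in 10.6%. In bulk RNA, fewer cells that carry a transcript and less of it per cell cannot be told apart.

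The number of these calls depended on how limma estimates variance and on single libraries. The same 8 and 1 members were called with median centring, with quantile normalization, and with the count models edgeR and DESeq2, but with a single prior variance for all genes limma called 0 members. In that fit 10 members had an unadjusted P below 0.05 with a negative fold change and 2 with a positive one, and the adjusted P of the 9 called members ran from 0.187 to 0.346. Without WT replicate 3, 3 members were called lower (*Pf4*, *Plek*, and *Gp1bb*). *F2rl2* was then at a log2 fold change of −0.94, and *Treml1*, *F2r*, *Gp1ba*, and *Gp5* were at −0.578 to −0.49, inside the threshold. Without *Irf1-/-* replicate 3, 5 members were called lower, and *F2r*, *Gp1ba*, and *Gp5* were not among them (−0.52, −0.64, and −0.48). Leaving out *Irf1-/-* replicate 2 took *Gp1ba* and *Gp5* from the calls, although their log2 fold changes were −0.70 and −0.72. Leaving out WT replicate 2 took *Gp5* (−0.65), and leaving out WT replicate 4 added *Itga2b* and *Gfi1b* to make 10. With weights for each library in limma, *Gp1ba* and *Gp5* were not called and *Alox12* was called higher beside *Selp*.

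**Figure D1:**
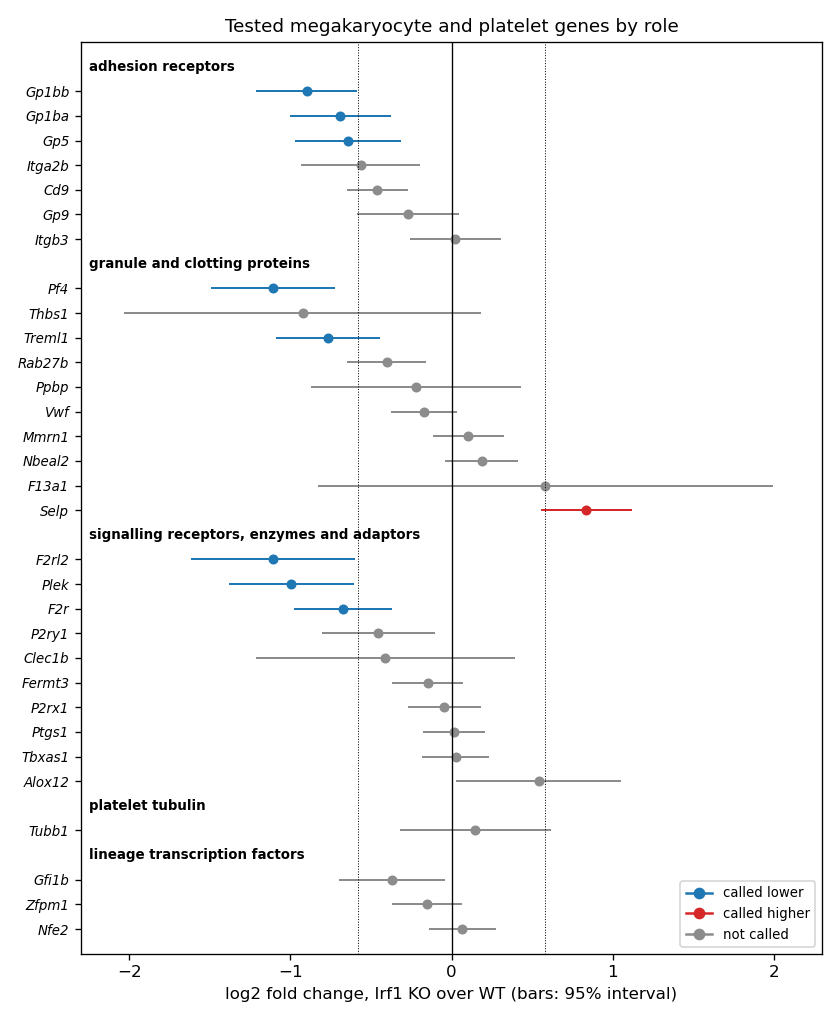
Log2 fold change of *Irf1-/-* over WT HSCs for each of the 31 tested members, grouped by role, with 95% intervals from limma as bars and dotted lines at −0.58 and 0.58. The 8 members called lower lie in the groups of adhesion receptors (3), granule and clotting proteins (2), and signalling proteins (3), and *Selp* is the 1 called higher.

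Of the 4 chains of the von Willebrand factor receptor GPIb-IX-V, 3 were lower. *Gp1bb*, the chain bound by a disulfide to GPIbα, had 1374, 939, and 1167 normalized counts in *Irf1-/-* HSCs and 2012, 2452, and 1984 in WT HSCs. The groups did not overlap, and *Irf1-/-* replicate 3 was the lowest library. Its mean fell from 2149 ± 263 to 1160.1 ± 217 (SD, n = 3 each), a log2 fold change of −0.90 (SE 0.14, limma adjusted P = 0.00320). *Gp1ba*, the chain that binds the ligand, was at 1109, 1011, and 1145 in *Irf1-/-* HSCs and at 1521, 2231, and 1589 in WT HSCs. The *Irf1-/-* libraries lay close together, and WT replicate 3 stood above the other WT libraries (log2 fold change −0.69, SE 0.14, limma adjusted P = 0.0183). *Gp5*, the loosely attached chain that thrombin can cleave, was at 3778, 2697, and 3787 in *Irf1-/-* and 5194, 6517, and 4343 in WT HSCs, again with *Irf1-/-* replicate 3 lowest and WT replicate 3 highest (−0.64, SE 0.15, limma adjusted P = 0.0337). *Gp9*, the small chain the complex needs to reach the surface, overlapped between groups, with 3380.4, 2852, and 4027 in *Irf1-/-* HSCs and 3497, 5083, and 3842 in WT HSCs. Its log2 fold change of −0.27, with a 95% interval of −0.58 to 0.04 that covers both 0 and a loss of the size of the threshold, was −0.11 without WT replicate 3. Whether *Gp9* differed from the other chains was not tested.

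Neither chain of the fibrinogen receptor was called. *Itga2b*, which encodes αIIb, was at 30846, 18422, and 26698 in *Irf1-/-* HSCs and 33871, 45662, and 31700.4 in WT HSCs. The groups were apart, the lowest library was *Irf1-/-* replicate 3, and the difference passed neither threshold (log2 fold change −0.56, SE 0.17, limma adjusted P = 0.0922). The value was −0.72 when *Irf1-/-* replicate 2 was left out and −0.35 when *Irf1-/-* replicate 3 was. *Itgb3*, the β3 chain that also pairs with other α chains, was at 6553, 6882, and 7701 in *Irf1-/-* and 6396, 8765, and 5901 in WT HSCs, with overlapping groups (log2 fold change 0.02, 95% interval −0.25 to 0.30). *Cd9*, a tetraspanin abundant on platelets, was at 9079, 8979, and 8535 in *Irf1-/-* HSCs and 11512, 13280, and 11843 in WT HSCs. Its libraries were tightly grouped and apart by genotype. The limma adjusted P was 0.0103, and the log2 fold change of −0.46 (SE 0.09) stayed under the threshold in size. *Gp6*, the collagen receptor of mature platelets, was the member that missed the filter of a mean of 10 normalized counts. It was at 9.59, 3.46, and 10.4 in *Irf1-/-* HSCs and 14.0, 1.13, and 10.8 in WT HSCs, from 1 to 17 reads per library, too few to show a difference at this depth.

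Among granule and clotting proteins, 2 of 10 were lower and 1 was higher. *Pf4*, the platelet chemokine CXCL4, was at 4605, 2337, and 3627 in *Irf1-/-* HSCs and 7660.5, 6788, and 7496 in WT HSCs. The WT libraries were close together and well above the *Irf1-/-* libraries, of which replicate 3 was lowest (log2 fold change −1.11, SE 0.18, limma adjusted P = 0.00334). *Ppbp*, a second platelet chemokine that lies next to *Pf4* on the chromosome, was at 158, 215, and 236 in *Irf1-/-* and 279, 321, and 142 in WT HSCs. Its groups overlapped, and the 95% interval of its log2 fold change, −0.87 to 0.42, covers both 0 and a decline like that of *Treml1*. *Treml1*, a receptor kept in alpha granules, was at 1144, 1036, and 1130.5 in *Irf1-/-* HSCs and 1689, 2445, and 1604 in WT HSCs. The 3 *Irf1-/-* libraries nearly coincided, and WT replicate 3 was well above the other WT libraries (log2 fold change −0.77, SE 0.15, limma adjusted P = 0.0117).

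*Selp* moved the other way. This gene, which encodes P-selectin of alpha granules and of endothelial granules, had 5350.4, 5138, and 7382 normalized counts in *Irf1-/-* HSCs and 3266, 3011, and 3621 in WT HSCs. All *Irf1-/-* libraries exceeded all WT libraries, and *Irf1-/-* replicate 4 was the highest. The mean rose from 3299 ± 306 to 5957 ± 1239 (SD, n = 3 each), with a log2 fold change of 0.84 (SE 0.13, limma adjusted P = 0.00251), and *Selp* was called in each of the 6 fits that left out 1 library.

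The 7 other genes of granule and clotting proteins were not called. *Vwf*, which marks platelet-biased HSCs, was at 11153, 9029, and 10525 in *Irf1-/-* HSCs and 11529, 11219.9, and 11658 in WT HSCs. The groups were apart by a narrow margin, and the 95% interval of the log2 fold change was −0.37 to 0.03, inside the threshold on both sides. *Mmrn1*, the carrier of factor V, was at 33908, 37394, and 33242 in *Irf1-/-* and 32479, 36179.6, and 28913 in WT HSCs, with overlap (log2 fold change 0.10, 95% interval −0.11 to 0.32). *Nbeal2*, which alpha granules need to form, had a log2 fold change of 0.19 (−0.03 to 0.41). *Rab27b*, a small GTPase of dense granules, was at 2922, 2456, and 2933 in *Irf1-/-* HSCs and 3944, 3873, and 3179 in WT HSCs. Its groups did not overlap, and it did not pass (log2 fold change −0.40, SE 0.11, limma adjusted P = 0.0713).

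In *Thbs1* and *F13a1*, libraries of the same genotype lay far apart. *Thbs1*, which encodes thrombospondin-1, was at 1227, 1212, and 5057 in *Irf1-/-* HSCs and 1526, 5425, and 6219 in WT HSCs. *Irf1-/-* replicate 4 sat with the high WT libraries and WT replicate 2 with the low *Irf1-/-* libraries, and the log2 fold change of −0.92 had a 95% interval of −2.03 to 0.18 and turned positive, 0.18, with weights for each library. Leaving out 1 library gave −1.61 (without *Irf1-/-* replicate 4) to −0.55 (without WT replicate 4). *F13a1*, the A subunit of clotting factor XIII, which monocytes also make, was at 342, 391, and 70.6 in *Irf1-/-* and 116, 414, and 58.1 in WT HSCs. Its high libraries were *Irf1-/-* replicates 2 and 3 and WT replicate 3. The monocyte marker *Ly6c2* was high in the same libraries, at 168, 181, and 3.11 in *Irf1-/-* and 2.47, 808, and 60.2 in WT HSCs. In each of the other listed markers of monocytes and macrophages, the highest libraries were a different set. For example, *Adgre1* was at 219, 62.2, and 260 in *Irf1-/-* and 119, 149, and 110 in WT HSCs. Monocytes carry CD11b, which the gate is set to exclude. Whether any were sorted, and the part of their transcripts in the counts of *F13a1*, was not tested. Its log2 fold change of 0.58 (SE 0.65) ran from −0.05 without WT replicate 4 to 1.37 without *Irf1-/-* replicate 4.

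Of the signalling receptors, enzymes, and adaptors, 3 of 10 were lower. The thrombin receptor *F2r* (PAR1) was at 12766, 8811, and 11603 in *Irf1-/-* HSCs and 17265, 20779.8, and 14771 in WT HSCs, and *F2rl2* (PAR3), the receptor that helps thrombin act on mouse platelets, was at 953, 486, and 1003 in *Irf1-/-* and 1646, 2089, and 1350.1 in WT HSCs. In both genes the groups were apart, with *Irf1-/-* replicate 3 lowest and WT replicate 3 highest. The log2 fold changes were −0.67 (SE 0.14, limma adjusted P = 0.0177) and −1.11 (SE 0.23, adjusted P = 0.0200). *F2rl3* (PAR4), which is not a member and carries the thrombin signal in mouse platelets, was at 5796, 6489.6, and 5595 in *Irf1-/-* HSCs and 5749, 6439, and 5369 in WT HSCs, with overlap and a 95% interval of −0.18 to 0.23 (log2). *Plek*, the main protein kinase C substrate of platelets, was at 7530.5, 4438, and 5838 in *Irf1-/-* HSCs and 10999, 14941, and 9399 in WT HSCs. Its mean fell from 11779.8 ± 2852 to 5936 ± 1548 (SD, n = 3 each; log2 fold change −0.99, SE 0.18, limma adjusted P = 0.00745), and *Irf1-/-* replicate 3 was again lowest and WT replicate 3 highest.

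The other 7 genes of this role did not pass. The ADP receptor *P2ry1* was at 1808, 1147, and 1326 in *Irf1-/-* HSCs and 1832, 2292, and 1690.1 in WT HSCs, where *Irf1-/-* replicate 2 fell among the WT libraries (log2 fold change −0.46, SE 0.16, limma adjusted P = 0.157). *P2rx1*, the ATP-gated channel, and *Fermt3*, the kindlin that activates integrins, had log2 fold changes of −0.04 and −0.15. The enzymes that make thromboxane, *Ptgs1* and *Tbxas1*, had overlapping groups and 95% intervals of −0.17 to 0.20 and −0.18 to 0.23 (log2). *Alox12*, the platelet lipoxygenase, was at 288, 242, and 311 in *Irf1-/-* and 159, 247, and 179 in WT HSCs, with overlap and a log2 fold change of 0.54 (SE 0.23, limma adjusted P = 0.266). *Clec1b*, the receptor CLEC-2, ranged from 44.9 to 114 over the 6 libraries, and the 95% interval of its log2 fold change of −0.41 was −1.21 to 0.39. Without *Irf1-/-* replicate 3 the value was −0.05.

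No lineage transcription factor among the members was called. *Nfe2*, which drives late platelet production, was at 42980.4, 50814, and 46246 in *Irf1-/-* HSCs and 45180.4, 46119, and 42198 in WT HSCs (log2 fold change 0.07, 95% interval −0.14 to 0.27). *Gfi1b*, a repressor needed for megakaryocytes and red cells, was at 9805, 9318, and 8695 in *Irf1-/-* and 12192, 15728, and 8979.6 in WT HSCs. WT replicate 4 lay within the *Irf1-/-* range, and the log2 fold change of −0.37 (SE 0.15, limma adjusted P = 0.225) was −0.58 without that library and −0.18 without WT replicate 3. *Zfpm1*, the GATA cofactor FOG1, had −0.15 (−0.36 to 0.06). *Tubb1*, the β-tubulin of the platelet marginal band, ranged from 254 to 418 over all libraries, with a log2 fold change of 0.15 (−0.31 to 0.61) that was 0.01 when *Irf1-/-* replicate 4 was left out and 0.37 when *Irf1-/-* replicate 3 was. For 10 members, *Itgb3*, *Vwf*, *Mmrn1*, *Nbeal2*, *P2rx1*, *Fermt3*, *Tbxas1*, *Ptgs1*, *Nfe2*, and *Zfpm1*, the whole 95% interval lay between −0.58 and 0.58.

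Levels in WT HSCs, as mean normalized counts per kilobase of the longest coding transcript, spanned a wide range among members. *Fermt3* (24455 per kilobase), *Nfe2* (23695), *Pf4* (12482), *Itga2b* (10788), *Cd9* (9944), and *Tbxas1* (9859) were highest, and 12 members were within the top 10% of the 13862 tested genes that had a length. At the other end were *F13a1* (50.5), *Alox12* (64.9), *Clec1b* (92.3), *Tubb1* (223), and *Ppbp* (229). The lower members were spread over this order, from *Gp1ba* at 511 to *Pf4*. Some genes of mature platelets had few reads. Beside *Gp6*, the ADP receptor *P2ry12* was at 6.40, 6.05, and 7.27 in *Irf1-/-* HSCs and 17.3, 13.5, and 19.4 in WT HSCs, and *Mpig6b* was at 14.9, 12.1, and 38.4 in *Irf1-/-* and 25.5, 12.4, and 30.1 in WT HSCs. The first was lower in all *Irf1-/-* libraries, but at these counts limma gave an adjusted P of 0.443 (log2 fold change −1.22, SE 0.70).

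The same libraries stood at the ends of the range in gene after gene. *Irf1-/-* replicate 3 was the lowest library in 8 of the 8 lower members, and WT replicate 3 was the highest in 7 of them and WT replicate 2 in *Pf4*. Over all 31 tested members, *Irf1-/-* replicate 3 was lowest in 19 and WT replicate 3 highest in 20. As the median over the 8 lower members of the log2 value minus the WT mean, the *Irf1-/-* libraries stood at −0.65, −1.09, and −0.73 and the WT libraries at −0.05, 0.31, and −0.23. The 8 were picked for being lower, so a gap between the genotypes in this median was fixed in advance. Over all 31 tested members it was −0.12, −0.36, and −0.12 in *Irf1-/-* libraries and −0.06, 0.20, and −0.12 in WT libraries. In that wider set the genotypes overlapped. Over all tested genes the same median lay between −0.0053 and 0.0212 in the 6 libraries. No label gives a batch for these libraries.

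Lists of further megakaryocyte and platelet genes, drawn up by function, held 132 tested genes. Of these, 6 were lower and 3 higher, which is 4.55% and 2.27%, and their median log2 fold change was −0.0027. Over all tested genes the shares were 0.954% lower and 0.960% higher, and the median was −0.0028. The same shares stand as background to the counts of each list below. The count of lower genes was 2 when *Irf1-/-* replicate 3 was left out, 3 when WT replicate 3 was, and 3 with quantile normalization, which took *Tbxa2r*, *Ptger3*, and *Rap1b* from the calls. The count of higher genes was 6 without WT replicate 4 and 5 with weights for each library. With a single prior variance in limma, 0 of the genes named below as called in these lists, in the signature of progenitors, or in the marker lists was called.

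Among 17 other transcription factors, 0 were called in either direction, and 0 or 1 in each alternative fit. *Gata1*, the master factor of megakaryocytes and red cells, was at 4168, 3102, and 4011 in *Irf1-/-* HSCs and 5453, 8221, and 4557 in WT HSCs. The groups did not overlap, with WT replicate 3 far above the rest, and the gene fell just short of the threshold (log2 fold change −0.66, SE 0.17, limma adjusted P = 0.0575). Without WT replicate 4 it was called lower, at −0.84 (limma adjusted P = 0.0105; 0.0105 to 0.400 over all alternative fits), and without WT replicate 3 the log2 fold change was −0.42. It was also called with a pseudocount of 5, with a filter of 50 normalized counts, and with median centring. *Gata2*, *Fli1*, *Runx1*, and *Tal1* had log2 fold changes of 0.13, 0.04, −0.0035, and −0.03.

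In a list of cytokine signalling genes, 1 of 9 tested genes was higher (11.1%) and 0 were lower. *Socs3*, a feedback inhibitor of that signalling, was at 1562, 1724, and 1541 in *Irf1-/-* and 694, 568, and 892 in WT HSCs, clearly apart, and rose by a log2 fold change of 1.19 (SE 0.15, limma adjusted P = 0.000737).

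Other platelet receptors had 2 of 22 tested genes lower and 1 higher. The prostanoid receptors *Tbxa2r*, for thromboxane, and *Ptger3*, for prostaglandin E2, fell. *Tbxa2r* was at 2479, 2205, and 2190.4 in *Irf1-/-* HSCs and 2903, 3941, and 3572 in WT HSCs, and *Ptger3* was at 2515, 2429, and 2755 in *Irf1-/-* and 4314, 3832, and 3561 in WT HSCs. Both sat just past the fold threshold (−0.59 and −0.60, SE 0.12 and 0.10, limma adjusted P = 0.0138 and 0.00486) and under it when *Irf1-/-* replicate 3 was left out (−0.56 for each). *Ptger3* was also not called without WT replicate 2 (−0.53), and *Tbxa2r* was called in 2 of the 6 fits without 1 library, those without *Irf1-/-* replicate 2 or WT replicate 2, and not with weights for each library. *Fcer1g*, the signalling chain shared by GPVI and Fc receptors, was at 1893, 2384, and 2271 in *Irf1-/-* and 1331, 1420, and 1414 in WT HSCs and rose by 0.65 (SE 0.11, limma adjusted P = 0.00689), or 0.58 without *Irf1-/-* replicate 3, just inside the threshold. *Itga2*, the collagen-binding integrin chain, had a log2 fold change of 0.43 (SE 0.18, limma adjusted P = 0.245).

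The signal transduction list had 1 of 32 tested genes lower, the granule formation list 1 of 30 lower and 1 higher, and the cytoskeleton list 2 of 22 lower. *Rap1b*, the small GTPase that switches on αIIbβ3, was not called without *Irf1-/-* replicate 3 or without WT replicate 3. It was at 26006, 20721, and 23013 in *Irf1-/-* HSCs and 34442, 42995, and 31934 in WT HSCs (log2 fold change −0.64, SE 0.12, limma adjusted P = 0.00894). *Tuba8*, an α-tubulin, was at 2899.6, 2364, and 2654 in *Irf1-/-* and 5049, 6411, and 4609 in WT HSCs (−1.01, SE 0.12, adjusted P = 0.000357). *Cap2*, an actin regulator, was at 69.3, 89.9, and 109 in *Irf1-/-* and 214, 263, and 270.0 in WT HSCs (−1.48, SE 0.27, adjusted P = 0.00898). *Serpine2*, an inhibitor of thrombin kept in alpha granules, was lower, at 559.7, 525, and 873 in *Irf1-/-* and 958, 1163, and 1059.7 in WT HSCs (−0.73, SE 0.18, adjusted P = 0.0422), and was called in 1 of the 6 fits without 1 library, that without *Irf1-/-* replicate 4, and neither with edgeR (adjusted P = 0.0529; 0.00432 to 0.317 over all alternative fits) nor with weights for each library (−0.50). *Sparc*, a matrix protein of alpha granules, was higher, at 390.2, 259, and 305 in *Irf1-/-* HSCs and 61.7, 134, and 111 in WT HSCs (log2 fold change 1.68, SE 0.31, limma adjusted P = 0.00850), and not called without *Irf1-/-* replicate 2. *Myh9*, the myosin of platelet shape change, had 0.05 (−0.15 to 0.25).

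A published signature of megakaryocytic progenitors, which the study also used on these samples and which is therefore not independent evidence, held 323 genes of the table that are not members. Of its 304 tested genes, 13 were lower (4.28%) and 1 was higher (0.329%), with a median log2 fold change of −0.0164. Over all tested genes 0.954% were lower and 0.960% higher, with a median of −0.0028. A negative log2 fold change was found in 158 of the 304, beside 50.4% of all tested genes. The count of lower genes was 5 without WT replicate 3, 6 without *Irf1-/-* replicate 3, and 8 without WT replicate 2. Higher genes numbered 8, beside 15 lower, with weights for each library, and 4 with DESeq2, with a replicate block, and without WT replicate 4. They numbered 3 with quantile normalization, with a filter of 50 normalized counts, and without *Irf1-/-* replicate 3. The number was 2 without WT replicate 3 and 0 with median centring and without *Irf1-/-* replicate 2 or 4. By size of fold change, the first 6 of the 13 were *Cap2*, *Alox5*, *Glrp1*, *Kalrn*, *Tuba8*, and *Ache*, of which *Cap2* and *Tuba8* are also in the cytoskeleton list. Among the rest of the 13, *Serpine2*, *Rap1b*, and *Ptger3* are also counted in the lists above, and *Tpx2* among the mitotic genes below. *Alox5*, the lipoxygenase of leukotriene synthesis, was at 138, 222, and 269 in *Irf1-/-* HSCs and 545, 613, and 430.3 in WT HSCs (−1.37, SE 0.25, limma adjusted P = 0.00825). *Kalrn*, a guanine nucleotide exchange factor, was at 744, 515, and 528 in *Irf1-/-* and 1135, 1503, and 1425 in WT HSCs (−1.19, SE 0.17, adjusted P = 0.00120). *Ache*, acetylcholinesterase, long used to stain mouse megakaryocytes, was at 1532, 909.9, and 1125 in *Irf1-/-* and 1955, 2699, and 1921 in WT HSCs (−0.90, SE 0.18, adjusted P = 0.0135) and was not called without WT replicate 3. *Glrp1* was at 71.4, 75.2, and 61.2 in *Irf1-/-* and 114, 190.5, and 258 in WT HSCs (−1.35, SE 0.34, adjusted P = 0.0453) and was called in 1 of the 6 fits without 1 library, that without WT replicate 2, and not with no filter. *Gda*, guanine deaminase, was the 1 higher gene, at 1191, 1163, and 1247 in *Irf1-/-* and 797, 845, and 722 in WT HSCs (0.61, SE 0.12, adjusted P = 0.0155), and was not called without *Irf1-/-* replicate 2, *Irf1-/-* replicate 4, or WT replicate 4, or with median centring.

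Of the 31 tested members, 20 are in this progenitor signature, and 7 of these were lower and 0 higher, with a median log2 fold change of −0.41. Among the 11 other tested members, 1 was lower (*Gp5*) and 1 higher (*Selp*), with a median of 0.07. A signature of genes that are higher in aged HSCs, from the same source, holds 7 members. Of these, *Plek* and *Gp1bb* were lower, *Selp* was higher, and *Itgb3*, *Vwf*, *Clec1b*, and *Mmrn1* were not called. Whether membership of either signature goes with the change was not tested.

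Marker lists of other cells and of division also differed between the libraries. All 14 mitotic genes had a negative log2 fold change (median −0.55), and 4 were lower (*Mki67*, *Top2a*, *Aurkb*, and *Tpx2*). Their summed level was 55839, 56269, and 36771 normalized counts in *Irf1-/-* HSCs and 78069, 80145, and 59760.2 in WT HSCs, and the most abundant, *Top2a*, was at 7874, 8285, and 5166 in *Irf1-/-* and 13177, 12858, and 9810.1 in WT HSCs. The groups did not overlap in either measure. Leaving out *Irf1-/-* replicate 4, WT replicate 2, or WT replicate 3 ended the call of all 4 genes, leaving out *Irf1-/-* replicate 2 that of *Mki67* and *Tpx2*, and leaving out *Irf1-/-* replicate 3 that of *Aurkb*. *Tpx2* was also not called with quantile normalization, with no filter, or with a pseudocount of 0.5. Of 14 erythroid markers, 10 were tested and 2 were lower, *Klf1* and *Car1*. A negative log2 fold change was found in 9 of the 10, with a median of −0.59. *Klf1* was at 901, 569, and 924 in *Irf1-/-* HSCs and 1396, 1290.4, and 1182 in WT HSCs, and *Car1* was at 836, 40.6, and 89.3 in *Irf1-/-* and 1666, 1062, and 2638 in WT HSCs. *Car1* was not called by edgeR or DESeq2 (adjusted P = 0.0887 and 0.198; 3.16e-05 to 0.344 over all alternative fits), nor by limma without *Irf1-/-* replicate 3 or 4, and *Klf1* lost its call when replicate 2 or 3 of either genotype was left out. The erythroid sum was 76041, 88743, and 81929 in *Irf1-/-* HSCs and 100466, 108116, and 100346 in WT HSCs, nearly all of it from *Car2*, at 68522, 84030, and 75844 in *Irf1-/-* and 90980.4, 98354, and 90457 in WT HSCs. The globin genes *Hba-a1*, *Hba-a2*, *Hbb-bs*, and *Hbb-bt* were at 0 in all libraries. The part of dividing cells and of erythroid transcripts in the lower members was not tested.

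Neutrophil markers summed to 8159, 8357, and 10846 in *Irf1-/-* HSCs and 6666, 5218, and 14844 in WT HSCs, 0 of 10 tested genes were called, and *Prtn3* was the most abundant at 7608, 7801, and 9879 in *Irf1-/-* and 6255, 4841, and 6445 in WT HSCs. *S100a8*, *S100a9*, *Ltf*, *Ngp*, *Camp*, *Lcn2*, and *Ly6g* were high in WT replicate 4 alone, with *Ltf* at 45.3, 28.2, and 2032 in the WT libraries and 64.0, 57.9, and 44.6 in the *Irf1-/-* libraries, while *Prtn3*, *Mpo*, *Elane*, and *Ctsg* were highest in *Irf1-/-* replicate 4. Neutrophils carry CD11b and Gr-1, which the gate is set to exclude. Whether any were sorted, and the part of these transcripts in the results, was not tested. Endothelial cells also make P-selectin and von Willebrand factor. Markers of endothelial and stromal cells summed to 6707, 6224, and 7024 in *Irf1-/-* HSCs and 4161, 4964, and 4888 in WT HSCs, with 0 of 9 called and all *Irf1-/-* sums above all WT sums. Their most abundant gene was *Emcn*, at 2011, 2224, and 2016 in *Irf1-/-* and 1461, 1454, and 1280.2 in WT HSCs. Its log2 fold change of 0.576 (SE 0.11, limma adjusted P = 0.0101) was just under the threshold in size. Of the 9 genes, 2 had a negative log2 fold change, and the median was 0.51. The groups were apart in *Emcn* and *Pdgfrb* and overlapped in *Cdh5*, *Plvap*, *Kdr*, *Cxcl12*, *Lepr*, *Col1a1*, and *Col1a2*. The part of endothelial and stromal cells in the rise of *Selp* was not tested.

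The list of sort and HSC markers had 2 of 13 genes higher, *Fgd5* and *Flt3*, and 0 lower, and summed to 160275, 183086, and 164627 in *Irf1-/-* HSCs and 159858, 154676, and 153817 in WT HSCs, with *Kit* as the most abundant. *Fgd5* was called in each of the 6 fits without 1 library, and *Flt3* in 2 of them, those without WT replicate 2 or 4, and not with weights for each library. Monocyte and macrophage markers summed to 28770.2, 34154, and 29484 in *Irf1-/-* and 25531, 32626, and 28578 in WT HSCs, mostly *Lyz2*, with 0 of 10 called. B cell markers summed to 3247, 3044, and 3205 in *Irf1-/-* and 2898, 3222, and 2881 in WT HSCs, mostly *Cd79b*, with 0 of 8 called. T and NK cell markers summed to 3183, 2915, and 3878 in *Irf1-/-* and 3884, 3593, and 3826 in WT HSCs, mostly *Nkg7*, with *Gzma* at 0 in all libraries and 0 of 6 called. Mast cell and basophil markers summed to 456, 404, and 456 in *Irf1-/-* and 363, 539.8, and 443 in WT HSCs, with *Cpa3* the most abundant, *Cma1* at 0 in all libraries, and 0 of 4 called. In the last 4 of these lists the sums of the genotypes overlapped.

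Some members share a place on the chromosome. In the RefSeq annotation of GRCm38.p6, *F2r* is next to *Iqgap2*, a scaffold protein of the cytoskeleton, whose span overlaps that of *F2rl2*. *Iqgap2* was at 17213, 17787, and 16945 in *Irf1-/-* HSCs and 16827, 18114, and 15925 in WT HSCs, with a log2 fold change of 0.03 (95% interval −0.15 to 0.21). *Cd9* and *Vwf* are also neighbours, as are *Ppbp* and *Pf4*. *Gp1bb* overlaps *Septin5*, which was at 76.8, 107, and 110.0 in *Irf1-/-* and 148, 112, and 115 in WT HSCs (log2 fold change −0.35, SE 0.30). These 2 overlapping genes were named after their values were seen. No source says whether reads were counted by strand, and the counts of *Gp1bb*, *F2rl2*, *Clec1b*, *Fermt3*, and *Tbxas1*, which overlap other coding genes (*Septin5*, *Iqgap2*, *Clec12b*, *Trpt1*, and *Hipk2*), are uncertain for that reason.

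Promoters of the GPIb-IX-V chains and of *Pf4* are shown because 4 of these 5 genes were lower together. RefSeq promoter windows (build GRCm38.p6, which is not the build of the count table) were found for 27 of the 32 members, not for *Rab27b*, *Nfe2*, *Itgb3*, *Vwf*, or *Thbs1*, and the 250 bases before each start were searched on both strands for 5 motifs. The ETS core AGGAAG was in 13 of the 27 (48.1%) and in 4 of the 8 lower members, beside 29.5% of all 32851 windows. The GATA motifs AGATAA and TGATAA, which share their last 5 letters, were in 4 each (14.8%), beside 9.99% and 7.94% of windows. The NF-E2 motif GCTGAGTCA was in 1 (*F2r*), beside 0.390% of windows, and the interferon regulatory factor motif GAAANNGAA was in 3 (*Cd9*, *Itga2b*, and *Mmrn1*) and in 0 of the 8 lower members, beside 7.13% of windows. A match describes the letters of the window and is not evidence of binding. Capitals mark these motifs, on either strand, in *Gp1ba* (chr11:70638872-70639121, plus strand), *Gp1bb* (chr16:18622404-18622653, minus strand), *Gp5* (chr16:30310782-30311031, minus strand), *Gp9* (chr6:87777820-87778069, plus strand), and *Pf4* (chr5:90772185-90772434, plus strand), each written in the direction of the gene.
Gp1ba: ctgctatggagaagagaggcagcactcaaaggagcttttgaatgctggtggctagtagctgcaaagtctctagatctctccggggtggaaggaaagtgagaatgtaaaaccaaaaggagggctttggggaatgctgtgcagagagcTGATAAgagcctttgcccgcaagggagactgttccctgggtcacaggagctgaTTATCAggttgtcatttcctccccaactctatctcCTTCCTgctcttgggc
Gp1bb: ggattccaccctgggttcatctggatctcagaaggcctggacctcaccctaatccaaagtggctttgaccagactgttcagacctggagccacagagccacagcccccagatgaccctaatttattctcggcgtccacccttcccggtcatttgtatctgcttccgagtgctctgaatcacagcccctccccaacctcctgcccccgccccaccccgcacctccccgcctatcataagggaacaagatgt
Gp5: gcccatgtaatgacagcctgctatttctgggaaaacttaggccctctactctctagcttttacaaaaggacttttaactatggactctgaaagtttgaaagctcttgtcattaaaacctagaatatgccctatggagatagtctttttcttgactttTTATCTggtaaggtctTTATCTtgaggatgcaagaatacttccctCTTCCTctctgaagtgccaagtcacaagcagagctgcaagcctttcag
Gp9: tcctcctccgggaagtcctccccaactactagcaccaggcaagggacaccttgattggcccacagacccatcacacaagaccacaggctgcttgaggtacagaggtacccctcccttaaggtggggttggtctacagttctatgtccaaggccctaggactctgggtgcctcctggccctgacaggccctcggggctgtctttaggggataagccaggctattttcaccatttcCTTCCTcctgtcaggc
Pf4: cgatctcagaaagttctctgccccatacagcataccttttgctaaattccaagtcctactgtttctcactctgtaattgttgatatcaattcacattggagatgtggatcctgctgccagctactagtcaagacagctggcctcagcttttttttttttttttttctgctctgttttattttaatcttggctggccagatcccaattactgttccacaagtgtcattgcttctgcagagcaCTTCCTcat
*Gp1ba* held TGATAA on each strand and 1 ETS core, *Gp5* held AGATAA at 2 places and 1 ETS core, and *Gp9* and *Pf4* held 1 ETS core each. In *Gp1bb* these letters were not in the window.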

How the data were processed

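The deposited table holds normalized counts (a signal per gene and library). The authors used Trim Galore for trimming, HISAT2 for alignment to mm39 (per the submitters' processing notes), and HTSeq-count for counting. The annotation and any strand setting are not given in the sources used here. Libraries were made with SMART-Seq v4 and Nextera XT without molecular identifiers, so reads are not independent molecules. The values were whole multiples of 1 read for 100% of entries (tolerance 0.01), which gave back the reads and depths.

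Genes with a mean of at least 10 normalized counts entered limma 3.58.1 (R 4.3.3) as log2(normalized count + 1), with a prior variance that follows the mean, and P values were adjusted by Benjamini-Hochberg over all 17404. Fold changes are on this scale, where the added 1 shrinks those of low genes. With 3 against 3 libraries an exact permutation test cannot give a P below 0.1, so none is quoted. The fits were tested on simulated data. Alternatives were other pseudocounts, filters, variance models, and scalings, edgeR 4.0.16 and DESeq2 1.42.0 on the recovered reads, and leaving out each library.

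The members and lists were chosen with earlier results of these data known. Named genes were *Irf1*, all members, 12 further genes of the pathway (1 of them not reported here), the called genes of each list (at most 6 per direction), and of marker lists the most abundant gene and those at 0, with others said to be chosen later. Lengths came from GENCODE vM1 transcripts. The limma P values rest on the spread between 3 mice per group, combined with a prior variance drawn from all tested genes.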

Additional observations from a re-analysis of the deposited data

How the results depend on the processing

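Counts of called genes depended on how limma estimates variance and on which library was left out; the cause was not tested. Beside 167 genes higher and 166 lower, limma with a single prior variance called 7 and 33 (members 0 and 0), weights for each library gave 537 and 355 (members higher 2), and no fold threshold gave 301 and 260. DESeq2 called 289 higher and 208 lower, edgeR 165 and 162, and an adjusted P below 0.10 gave 258 higher. Leaving out 1 library at a time gave 83 to 305 genes higher, 105 to 265 lower, and 3 to 10 members lower. *Pf4*, *Gp1bb*, *Plek*, and *Selp* were called in 18 of 19 alternatives, *Treml1* and *F2rl2* in 17, *F2r* in 16, *Gp1ba* in 14, and *Gp5* in 13. The members' median log2 fold change stayed between −0.35 and −0.14 over all 19. With a replicate block the counts were 219 higher and 196 lower, members 1 and 8, and the median of members −0.27. After removal of group means, correlations between libraries of the same number were −0.094, 0.246, and 0.147. Those of different numbers ran from −0.326 to 0.251. With 3 libraries per group these correlations cannot show whether the shared numbers pair the libraries. None of the 9 called members changed direction in the 19 alternatives. Some genes that were not called did, and the cause was not tested. With weights for each library the log2 fold changes were 0.18 for *Thbs1*, 0.050 for *P2rx1*, −0.012 for *Fli1*, −0.012 for *F2rl3*, and 0.15 for *Mpig6b*. Median centring, which moved the median of all genes by −0.03, gave −0.0077 for *Itgb3*, −0.0051 for *Tbxas1*, −0.014 for *Ptgs1*, and −0.0036 for *F2rl3*, and quantile normalization 0.038 for *Runx1* and 0.0005 for *Tal1*. Over the fits without 1 library, values ran from −0.050 to 1.37 for *F13a1*, −0.58 to 0.0066 for *Ppbp*, −0.63 to 0.17 for *Mpig6b*, −0.091 to 0.19 for *Itgb3*, −0.13 to 0.043 for *P2rx1*, −0.028 to 0.11 for *Tbxas1*, −0.035 to 0.080 for *Ptgs1*, −0.037 to 0.082 for *Fli1*, −0.11 to 0.065 for *Runx1*, −0.10 to 0.061 for *Tal1*, −0.035 to 0.10 for *F2rl3*, −0.032 to 0.10 for *Myh9*, and −0.012 to 0.081 for *Iqgap2*. In uncalled genes that kept their direction but moved by more than 1.5 times, they ran from −1.61 to −0.55 for *Thbs1*, −0.72 to −0.35 for *Itga2b*, −0.61 to −0.051 for *Clec1b*, −0.58 to −0.18 for *Gfi1b*, −0.40 to −0.11 for *Gp9*, −0.23 to −0.082 for *Vwf*, −0.21 to −0.057 for *Fermt3*, −0.25 to −0.089 for *Zfpm1*, 0.014 to 0.37 for *Tubb1*, 0.10 to 0.28 for *Nbeal2*, 0.022 to 0.18 for *Mmrn1*, 0.0038 to 0.12 for *Nfe2*, −0.84 to −0.42 for *Gata1*, 0.031 to 0.22 for *Gata2*, and −0.45 to −0.19 for *Septin5*. Depth limits what can be said of *Gp6*, *P2ry12*, and *Mpig6b*. With 3 mice per group the variance of each gene itself rests on few degrees of freedom, and limma borrows the rest from all tested genes. Mice of 1 sex and age were used.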
